A study of Mus musculus with 12 samples.

Results

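Neuropeptides and the receptors that read them were followed in the dorsal raphe (DR) of STAT3 KO mice, bred for deletion of Stat3 from serotonergic cells, and of their controls. The genes were taken from the tables by their symbols. It holds 44 of the 24421 genes in the count tables, 20 that encode peptides or secreted neuronal ligands and 24 that encode peptide receptors. RNA of 12 animals was sequenced singly, from 8 STAT3 KO mice and 4 controls, and each genotype held as many females (4 and 2) as males. Control animals were Sert Cre/+; Stat3 fl/+ and STAT3 KO animals were Sert Cre/+; Stat3 fl/fl, from a C57BL/6 x 129 background. Both genotypes thus carried Cre at the serotonin transporter locus and at least 1 floxed Stat3 allele, and no animal without Cre was sequenced. They were littermates of adult age, between 8 and 16 weeks old when experiments began. Deletion depends on expression of the serotonin transporter, whereas the tissue was a square piece below the aqueduct with all of its cell types. A lower value in such bulk tissue cannot tell fewer cells of a type from less RNA per cell. Libraries are named by genotype and animal number.

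Neuropeptides are cut from larger precursors, stored in dense core vesicles and released during sustained firing. They act mostly through G protein-coupled receptors and over longer distances than classical transmitters. In the DR, peptides are made by serotonergic neurons, by neighbouring dopaminergic, GABAergic and glutamatergic neurons, and by fibres whose cell bodies, and so most of their mRNA, lie elsewhere. A peptide and its receptor are usually transcribed in different cells, so their transcripts need not move together.

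Counting depth was between 24379588 and 29645210 reads on genes per library, at which 3 counts equal 0.101 to 0.123 CPM (reads on a gene scaled by library size to a common total). Control animals had 66.6 ± 1.49 CPM (SD, n = 4) of Stat3 itself and STAT3 KO animals had 66.3 ± 2.72 CPM (SD, n = 8), but these counts span the whole gene in every cell and do not resolve the deleted exons. The serotonergic marker Tph2 was read at 540 CPM or more in every library, and Slc6a4 at 151 CPM or more. The pieces of tissue differed in what else they held. The summed level of 10 forebrain excitatory neuron genes was 403 CPM in control 4 and 79.5 to 149 CPM in the other libraries. The summed level of 8 choroid plexus genes was 247 CPM in STAT3 KO 8 and 241 CPM in STAT3 KO 16, while the other libraries were at 21.8 to 28.1 CPM. Of these 2 sums Ttr alone made 213 and 202 CPM. Cerebellar genes summed to 699.6 CPM in STAT3 KO 16 and to 98.9 CPM in the lowest library. The summed level of 8 dopaminergic genes was 1141 CPM in control 3, inside the 884.7 to 1189 CPM of STAT3 KO. Among them Slc6a3 was at 114 CPM in control 3 and 9.69 to 47.2 CPM elsewhere, while Slc18a2 was lowest in control 3 at 287 CPM.

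Levels were compared between genes as CPM per kilobase of exon. Sst, whose product somatostatin inhibits neurons and hormone release, led the peptides with 97.5 ± 18.7 CPM per kb (SD, n = 4) in controls and 115 ± 12.6 CPM per kb (SD, n = 8) in STAT3 KO. Vgf, which encodes a precursor of several secreted neuronal peptides, followed with 81.9 ± 8.19 and 84.4 ± 20.1 CPM per kb. Nxph4 was next at 24.9 ± 1.38 and 25.2 ± 4.30 CPM per kb, and its product neurexophilin 4 is a secreted partner of neurexins and not a classical neuropeptide. Cck, Tac1, Trh, Nts and Adcyap1 had means over all 12 animals between 10.1 and 21.6 CPM per kb. The lowest peptide genes were Npw, Tac2, Cort and Nmu, each at or below 0.882 CPM per kb.

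**Figure D1:**
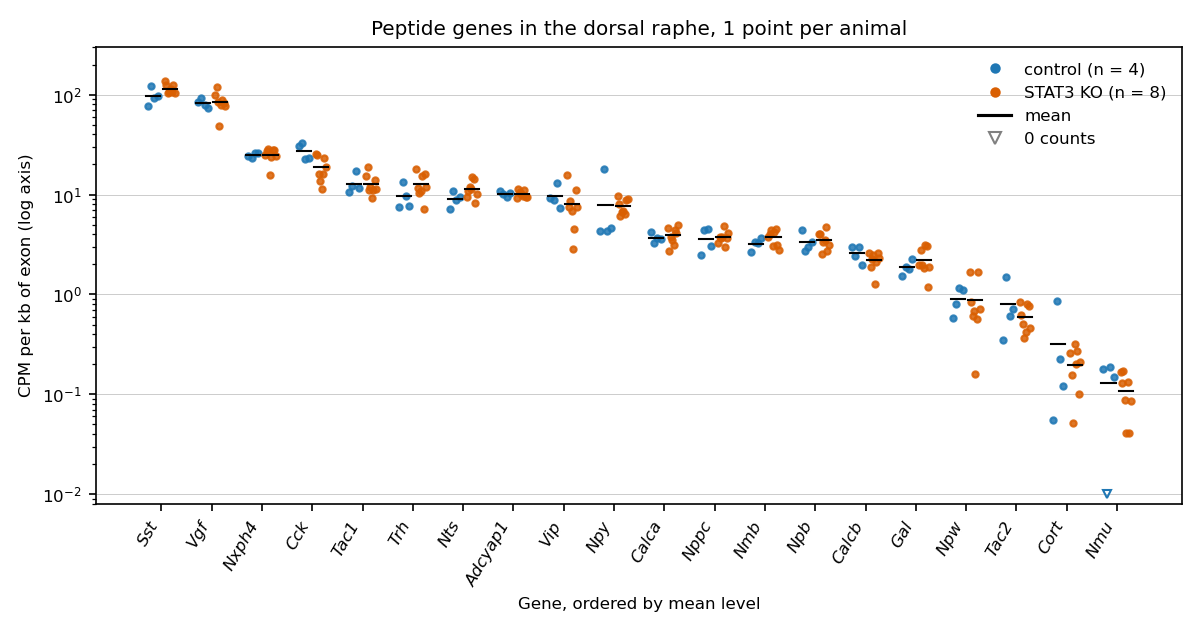
Level of each peptide gene in each animal, in CPM per kilobase of exon on a log axis, with controls (blue, n = 4) and STAT3 KO (orange, n = 8) side by side, black bars for means and open triangles for 0 counts. Sst and Vgf lie highest, Npy in control 4 stands apart from the other controls, and Vip and Npw are lowest in STAT3 KO 10.

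Among receptors, Adcyap1r1 stood highest at 54.1 ± 3.29 CPM per kb (SD, n = 4) in controls and 56.3 ± 2.89 CPM per kb (SD, n = 8) in STAT3 KO. It encodes the PAC1 receptor for PACAP, the product of Adcyap1. Ntsr2, a neurotensin receptor known from astrocytes as well as neurons, was at 42.7 ± 0.815 and 44.0 ± 3.63 CPM per kb. Sstr1, a somatostatin receptor, came after these with 13.2 ± 0.936 and 13.1 ± 0.888 CPM per kb, and Hcrtr1, the orexin receptor 1, with 9.42 ± 0.765 and 9.78 ± 0.748 CPM per kb. The other 20 receptors had means of 5.08 CPM per kb or less. Of the receptors that share a ligand, Hcrtr2 was lower than Hcrtr1, at 1.84 ± 0.0899 CPM per kb in controls, while Npy1r, Npy2r and Npy5r lay close together at 2.58 ± 0.473, 3.21 ± 0.64 and 2.59 ± 0.146 CPM per kb. The VIP receptors Vipr1 and Vipr2 were at 0.327 ± 0.269 and 0.738 ± 0.233 CPM per kb.

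**Figure D2:**
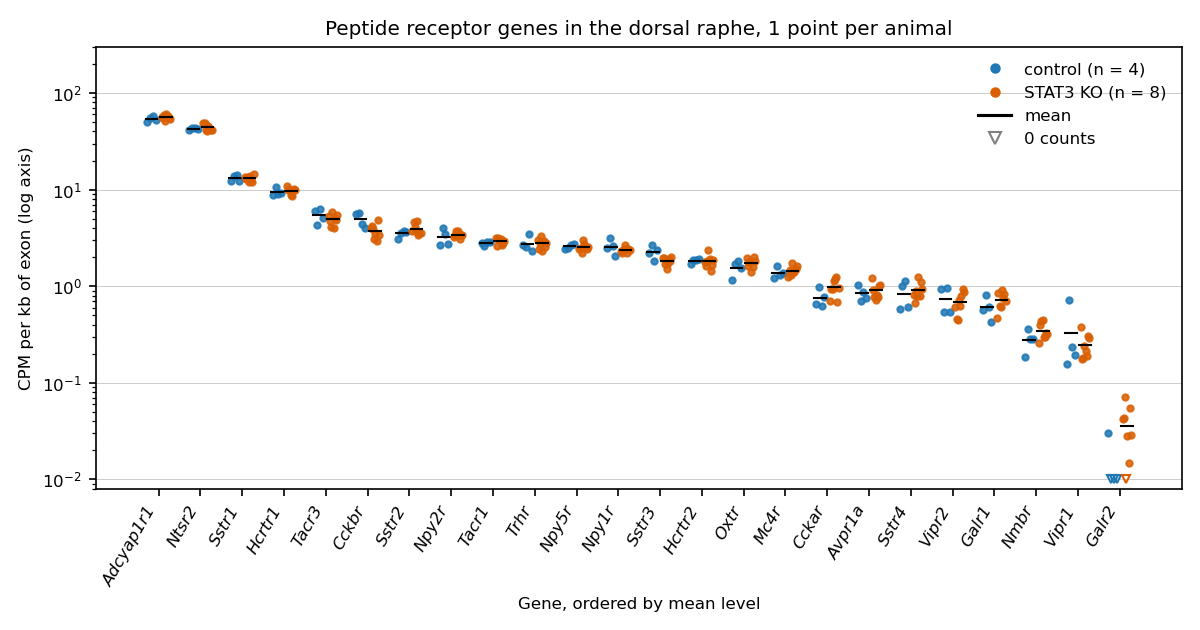
Level of each receptor gene in each animal, in CPM per kilobase of exon on a log axis, with controls (blue, n = 4) and STAT3 KO (orange, n = 8), black bars for means and open triangles for 0 counts. Adcyap1r1 and Ntsr2 lie above all other receptors with little spread, and Galr2 had 0 counts in 3 controls and 1 STAT3 KO animal.

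Of the 44 genes, 41 passed the expression filter and were tested between genotypes. Nmu was read with 0 to 4 counts, Cort with 1 to 16 and Galr2 with 0 to 5, and these 3 did not pass. The 16 counts of Cort, which encodes a close relative of somatostatin, were in control 4. No gene among these 41 passed an adjusted p of 0.05 in edgeR's quasi-likelihood test, where 0 of 15453 genes (0%) did, and the smallest adjusted p among them was 0.615. DESeq2 also gave 0 of the set, against 0.0300% of the genes it tested. An unadjusted p below 0.05 was found for 5 of 41 (12.2%), compared with 7.66% of all genes tested. Without control 4 it was found for 10 of 41 (24.4%), compared with 8.96% of all genes. These were Cck, Cckar, Cckbr, Galr1, Npy, Npy2r, Nts, Sst, Tacr3 and Trh. Of the 5 with all animals, 2 were higher in STAT3 KO (background 3.61%) and 3 were lower (background 4.05%). A two-sided exact permutation test over animals gave a p below 0.05 for 3 of 41, or 7.32%, which is close to the 7.10% of all genes. In all 41 genes the ranges of STAT3 KO and control overlapped, whereas 0.447% of all genes had ranges apart. The median log2 fold change (STAT3 KO minus control) was 0.044 over the set and -0.0011 over all genes, with 24 genes above and 17 below 0.

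**Figure D3:**
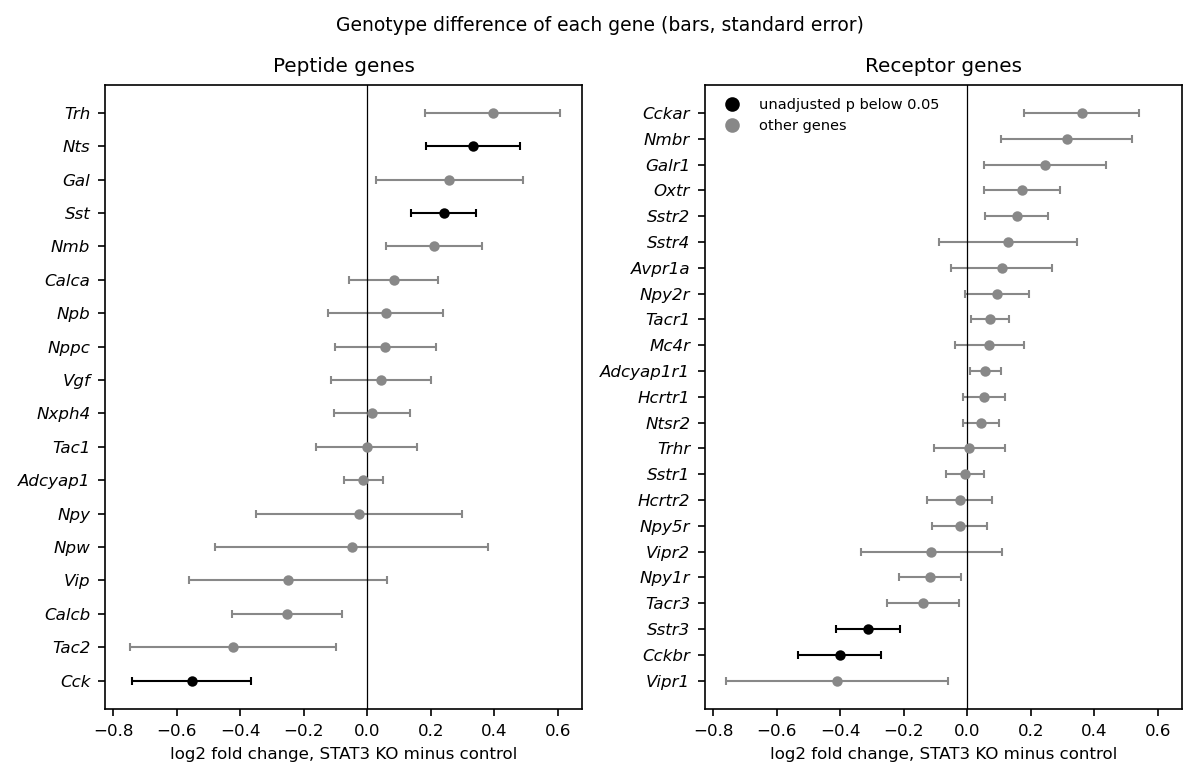
Log2 fold change (STAT3 KO minus control) of the 18 peptide and 23 receptor genes tested, with bars for the standard error. The 5 genes with an unadjusted p below 0.05 are black (Cck, Cckbr and Sstr3 lower, Sst and Nts higher), and no gene passed after adjustment.

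The 3 genes with lower levels included Cck and its receptor. Cck encodes cholecystokinin, a peptide abundant in cortical and midbrain neurons (ENSMUSG00000032532, chromosome 9 of GRCm38, 121489824 to 121495694). It was at 39.6, 43.1, 29.7 and 30.5 CPM in controls 3, 4, 11 and 13. STAT3 KO animals ranged from 14.7 CPM (STAT3 KO 10) over a median of 22.8 CPM to 33.1 CPM (STAT3 KO 5). All 8 STAT3 KO animals lay below the mean of the controls, but 3 of them reached into the range of the controls. The log2 fold change was -0.55 (SE 0.19, p = 0.0098, adjusted p = 0.615 by edgeR; exact permutation p = 0.038). Cckbr encodes the cholecystokinin receptor that predominates in the brain (ENSMUSG00000030898, chromosome 7, 105425731 to 105470898). It was at 16.1, 16.4, 12.5 and 11.5 CPM in controls 3, 4, 11 and 13, and at 8.35 to 13.97 CPM in STAT3 KO with a median of 10.6 CPM. All 8 STAT3 KO animals were below the control mean of 14.1 CPM (7 of 8 on the log2 scale), although STAT3 KO 15 and STAT3 KO 6 reached above the lowest control. Its log2 fold change was -0.40 (SE 0.13, p = 0.0079, adjusted p = 0.615 by edgeR; exact permutation p = 0.028). The other receptor, Cckar, went with the opposite sign at 2.79 ± 0.618 CPM (SD, n = 4) against 3.58 ± 0.779 CPM (SD, n = 8) in the STAT3 KO (log2 fold change 0.36, SE 0.18, exact permutation p = 0.105). Without control 4, the log2 fold changes of Cck and Cckbr were -0.45 (exact permutation p = 0.115) and -0.32 (exact permutation p = 0.085), and without control 3 they were -0.50 (exact permutation p = 0.103) and -0.33 (exact permutation p = 0.085). By this test Cck was at or above 0.05 in 7 of the 12 tests that each left out 1 animal. The median log2 fold change was 0.026 over 8 serotonergic, 0.031 over 5 noradrenergic, 0.063 over 6 cholinergic and 0.0092 over 5 GABAergic marker genes. In these 4 lists 0 genes had an unadjusted p below 0.05. The markers of other cells differed in sign. The median log2 fold change of 10 forebrain excitatory genes was -0.88 with all animals (3 lower with an unadjusted p below 0.05) and 0.24 without control 4 (0 with an unadjusted p below 0.05), a comparison chosen after seeing the data. It was -0.19 over 8 dopaminergic genes (1 higher and 1 lower with an unadjusted p below 0.05), 0.80 over 8 cerebellar genes (3 higher) and 0.32 over 7 choroid plexus genes (2 higher). For Ucn and Cartpt of the Edinger-Westphal nucleus it was -0.92, and their sum ran from 45.4 to 618 CPM in controls and 26.8 to 366 CPM in STAT3 KO. Without control 4 the median was -0.27 for the dopaminergic and -1.28 for the Edinger-Westphal genes. An unadjusted p below 0.05 was then found for 1 higher and 3 lower dopaminergic genes, both Edinger-Westphal genes (lower), 1 lower noradrenergic gene, 1 higher and 1 lower GABAergic gene, 1 lower cerebellar gene and 1 higher choroid plexus gene. The part of these markers in the values of Cck and Cckbr was not tested, and no relation of either gene with a marker list passed after adjustment.

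The stretches before the start sites of the Cck and Cckbr genes are shown because both transcripts had lower values, and that of Nts because it had higher ones. Sequences are from RefSeq for GRCm38.p6, whose promoter table holds 34 of the 44 genes. They were searched on both strands for TTCNNNGAA, the spaced palindrome bound by STAT proteins, for its stricter form TTCCNGGAA, and for the cAMP response element TGACGTCA with its 7-base core TGACGTC, which the longer element contains. Capitals mark a match to TTCNNNGAA, TGACGTCA or TGACGTC. None of the first 3 stretches holds one.
Cck, chr9:121495695-121495944, minus strand: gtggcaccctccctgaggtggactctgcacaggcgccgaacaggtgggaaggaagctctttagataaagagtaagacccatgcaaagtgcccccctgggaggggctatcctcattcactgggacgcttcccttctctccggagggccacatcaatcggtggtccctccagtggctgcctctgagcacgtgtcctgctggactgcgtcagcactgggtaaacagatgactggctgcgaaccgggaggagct
Cckbr, chr7:105425481-105425730, plus strand: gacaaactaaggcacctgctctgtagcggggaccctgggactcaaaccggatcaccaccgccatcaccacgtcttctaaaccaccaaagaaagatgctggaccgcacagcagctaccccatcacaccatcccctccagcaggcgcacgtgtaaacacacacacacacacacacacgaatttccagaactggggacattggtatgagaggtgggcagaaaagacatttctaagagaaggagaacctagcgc
Nts, chr10:102490487-102490668, minus strand: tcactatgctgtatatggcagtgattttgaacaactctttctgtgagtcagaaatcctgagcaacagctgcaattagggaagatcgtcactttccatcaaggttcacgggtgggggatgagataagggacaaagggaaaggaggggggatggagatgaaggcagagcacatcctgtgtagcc
In the 250 bases before a start, TTCNNNGAA matched in 7.02% of 32851 promoters and in 2 of the 34 genes, Galr2 and Ntsr2. TTCCNGGAA matched in 0.913% of promoters and in 0 of the 34. TGACGTCA matched in 1.55% of promoters and in 2 of the 34, Sst and Sstr2. Its core TGACGTC matched in 2.78% of promoters and in 5 of the 34, which adds Vip, Adcyap1 and Tacr3. The matches of Vip, Sst and Ntsr2 are shown, the last 2 with 10 bases on either side. RefSeq and GENCODE place the starts of Sst, Ntsr2 and Nts differently. The Nts stretch is therefore only the 182 bases before the gene as GENCODE gives it, and the matches of Sst and Ntsr2 lie before the RefSeq start but inside the gene as GENCODE gives it.
Vip, chr10:5638968-5639217, plus strand: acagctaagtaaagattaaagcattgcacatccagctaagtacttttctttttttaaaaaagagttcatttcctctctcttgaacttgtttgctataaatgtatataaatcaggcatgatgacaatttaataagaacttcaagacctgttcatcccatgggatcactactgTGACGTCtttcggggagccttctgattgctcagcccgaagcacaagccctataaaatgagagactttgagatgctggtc
Sst, chr16:23890875-23890902, minus strand: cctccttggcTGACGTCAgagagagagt
Ntsr2, chr12:16653398-16653426, plus strand: gttttggaggTTCCCAGAAaggaggtggt
A match describes the letters of the sequence and does not show that a factor binds there, nor does the lack of one show that it does not.

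Of the somatostatin system, the peptide and a single receptor had unadjusted p values below 0.05, in opposite directions. Sst (ENSMUSG00000004366, chromosome 16, 23889573 to 23890958) was at 56.0, 88.5, 67.0 and 69.7 CPM in controls 3, 4, 11 and 13. It ranged from 74.9 to 99.8 CPM in STAT3 KO, with a median of 80 CPM. All 8 STAT3 KO animals were above the control mean and above 3 of the 4 controls, with control 4 inside their range. The log2 fold change was 0.24 (SE 0.10, p = 0.033, adjusted p = 0.63 by edgeR; exact permutation p = 0.069). Sstr3, a receptor found on neuronal primary cilia (ENSMUSG00000044933, chromosome 15, 78537008 to 78544685), was at 9.52, 11.6, 7.90 and 10.3 CPM in the same controls and at 6.44 to 8.69 CPM in STAT3 KO, with a median of 8.09 CPM. Control 11 lay within the STAT3 KO range and the other controls above it. Its log2 fold change was -0.31 (SE 0.10, p = 0.0076, adjusted p = 0.615 by edgeR; exact permutation p = 0.014). Without control 4 that of Sst was 0.37 (exact permutation p = 0.0061, adjusted p = 0.19 by edgeR), without control 3 it was 0.15 (exact permutation p = 0.242), and without control 4 that of Sstr3 was -0.22 (exact permutation p = 0.067). The somatostatin receptors Sstr1, Sstr2 and Sstr4 had log2 fold changes of -0.0060, 0.16 and 0.13, with SE of 0.060, 0.10 and 0.22, and Sstr5, which is not in the set, had 0.0097 (SE 0.20).

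Nts encodes neurotensin, a modulator of dopaminergic neurons (ENSMUSG00000019890, chromosome 10, 102481756 to 102490486). It was at 8.96, 13.4, 10.98 and 11.8 CPM in controls 3, 4, 11 and 13. In STAT3 KO it ranged from 10.4 CPM (STAT3 KO 15) over a median of 13.9 CPM to 18.6 CPM (STAT3 KO 10). The groups overlapped, and 7 of 8 STAT3 KO animals lay above the control mean. The log2 fold change was 0.33 (SE 0.15, p = 0.038, adjusted p = 0.645 by edgeR; exact permutation p = 0.087). Ntsr2 had a log2 fold change of 0.044 (SE 0.056). The level of Nts followed that of noradrenergic marker genes from animal to animal. Slc6a2, the noradrenaline transporter, was at 0.784, 11.2, 2.12 and 10.1 CPM in controls 3, 4, 11 and 13, and at 0.675 (STAT3 KO 15) to 30.0 CPM (STAT3 KO 14) in STAT3 KO. The animals lowest in Nts, control 3 and STAT3 KO 15, were also lowest in Slc6a2, and the highest, STAT3 KO 10 and STAT3 KO 14, were highest in both. Over the deviations of 12 animals from their genotype means, Nts and the mean of Dbh and Slc6a2, the 2 noradrenergic markers on no other list, had Pearson's r = 0.934 (permutation p = 5e-05, adjusted p = 0.0090) and Spearman's rho = 0.958 (permutation p = 1e-05, the smallest the resamples can give, adjusted p = 0.0018). Without the 2 animals farthest from the median of the markers r was 0.875. This was 1 of 180 relations of 20 genes with 9 marker lists, and no other relation passed after adjustment. With 5 dopaminergic markers Nts had r = -0.807 (permutation p = 0.0007, adjusted p = 0.063) and rho = -0.839 (permutation p = 0.00125, adjusted p = 0.1125). Without the 2 animals farthest from the median of these markers r was -0.797, and without those for Nts it was -0.744. Mean Slc6a2 was 6.03 ± 5.33 CPM (SD, n = 4) in controls against 10.1 ± 9.85 CPM (SD, n = 8) in the KO animals, and the part of this difference in the genotype value of Nts was not tested.

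**Figure D4:**
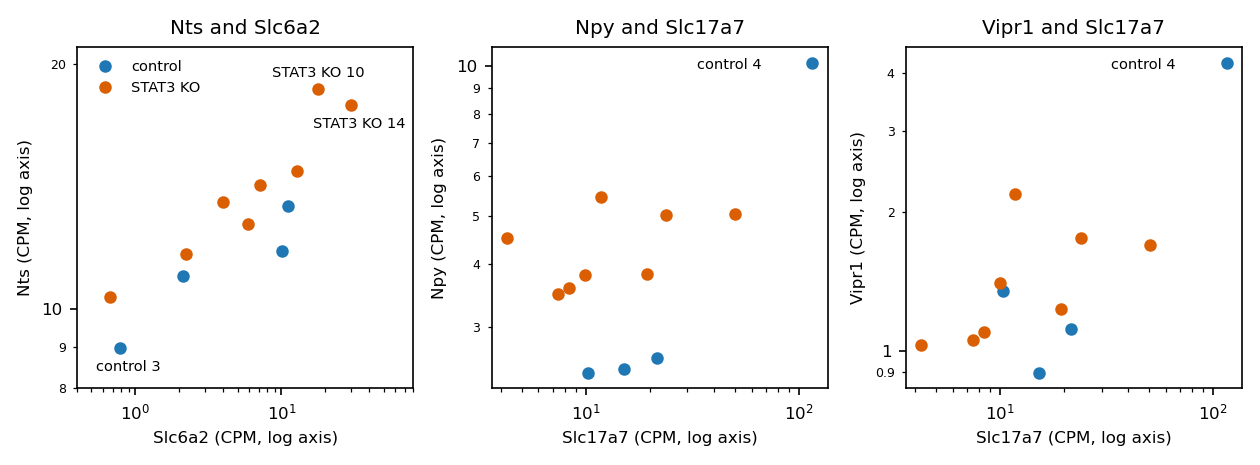
Nts against Slc6a2, and Npy and Vipr1 against Slc17a7, with 1 point per animal (blue, control; orange, STAT3 KO) and all axes in CPM on log scales. Nts is low where Slc6a2 is low and high where it is high (r = 0.934 with noradrenergic markers), and control 4 stands alone at the top right in Npy, Vipr1 and Slc17a7.

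Npy showed how far 1 animal can set a group's mean. It encodes neuropeptide Y, a peptide of many GABAergic interneurons and of some noradrenergic neurons (ENSMUSG00000029819, chromosome 6, 49822710 to 49829507). Controls 3, 11 and 13 were at 2.47, 2.43 and 2.60 CPM, while control 4 was at 10.1 CPM. STAT3 KO animals were at 3.49 to 5.46 CPM with a median of 4.18 CPM. Every STAT3 KO animal lay above 3 of the controls and below the fourth. With all animals the log2 fold change was -0.027 (SE 0.32, adjusted p = 0.997 by edgeR). Without control 4 it was 0.80 (SE 0.16, p = 0.00016, adjusted p = 0.136 by edgeR; exact permutation p = 0.0061). Slc17a7, a vesicular glutamate transporter of forebrain and cerebellar neurons, was at 116 CPM in control 4 and at most at 50.3 CPM elsewhere, and over the 12 animals the relation of Npy with the forebrain genes did not pass after adjustment (r = 0.930, permutation p = 0.0033, adjusted p = 0.149; rho = 0.874, permutation p = 0.0085, adjusted p = 0.219; r = 0.842 without the 2 animals farthest from the median of the markers). The receptors Npy1r, Npy2r and Npy5r were at 8.90 ± 1.63, 10.9 ± 2.17 and 6.62 ± 0.374 CPM (SD, n = 4) in controls. In STAT3 KO they were at 8.22 ± 0.518, 11.6 ± 0.795 and 6.51 ± 0.629 CPM (SD, n = 8), and their log2 fold changes of -0.12, 0.092 and -0.024 were close to their SE of 0.098, 0.10 and 0.087 or smaller. Npy1r and Npy2r were also highest in control 4, at 11.01 and 13.6 CPM. By edgeR an unadjusted p below 0.05 was found for Npy2r without control 4 and for Npy1r without control 13, where 8.96% and 5.31% of all genes had one.

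Vip and its receptors varied more between animals of 1 genotype than between genotypes. Vip encodes vasoactive intestinal peptide, which in the DR region is made by a group of small dopaminergic neurons near the aqueduct (ENSMUSG00000019772, chromosome 10, 5639218 to 5647617). It was at 31.3, 30.3, 44.2 and 24.97 CPM in controls 3, 4, 11 and 13. STAT3 KO animals ranged 5.51-fold, from 9.62 CPM (STAT3 KO 10) over a median of 25.6 CPM to 53.0 CPM (STAT3 KO 5), so all controls lay inside their range. The log2 fold change was -0.25 (SE 0.31, adjusted p = 0.909 by edgeR), and it was -0.066 without control 11, -0.12 without STAT3 KO 10 and -0.46 without STAT3 KO 5. Vipr1 was at 4.22 CPM in control 4 and at 0.896 to 1.35 CPM in the other controls, and at 1.03 to 2.19 CPM in STAT3 KO. Its log2 fold change was -0.41 (SE 0.35) with all animals and 0.36 (SE 0.25) without control 4. Vipr2, the receptor of the circadian centre among other places, ranged from 2.39 to 4.24 CPM in controls and from 1.97 to 4.22 CPM in STAT3 KO (log2 fold change -0.11, SE 0.22). The related PACAP gene Adcyap1 was among the steadiest, at 38.5 ± 2.33 CPM (SD, n = 4) and 38.2 ± 2.96 CPM (SD, n = 8), with a log2 fold change of -0.013 (SE 0.061). Its receptor gene Adcyap1r1 had a log2 fold change of 0.058 (SE 0.048).

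Trh encodes thyrotropin-releasing hormone, which also acts in the brain. It was at 10.5, 18.6, 13.5 and 10.6 CPM in controls 3, 4, 11 and 13, and at 9.85 (STAT3 KO 14) to 25.04 CPM (STAT3 KO 5) in STAT3 KO, with a median of 16.3 CPM. The ranges overlapped, with 7 of 8 STAT3 KO animals above the control mean (log2 fold change 0.40, SE 0.21, adjusted p = 0.705 by edgeR; exact permutation p = 0.168). Without control 4 the log2 fold change was 0.61 (SE 0.22, exact permutation p = 0.067). Its receptor Trhr was at 11.01 ± 1.999 CPM (SD, n = 4) against 11.1 ± 1.31 CPM (SD, n = 8) in the STAT3 KO. Gal, which encodes galanin, a peptide present in serotonergic and noradrenergic neurons, was at 1.20, 1.49, 1.43 and 1.77 CPM in controls 3, 4, 11 and 13 and at 0.945 to 2.47 CPM in STAT3 KO (log2 fold change 0.26, SE 0.23). Its receptor Galr1 had a log2 fold change of 0.25 (SE 0.19). That was 0.43 (SE 0.20, exact permutation p = 0.073) without control 4 and 0.12 (SE 0.20, exact permutation p = 0.612) without control 13. Of the tachykinins, Tac1, the substance P gene, was at 43.8 ± 9.61 and 43.7 ± 10.2 CPM. Tac2, the neurokinin B gene, was at 2.07 CPM in control 4 and 0.486 to 0.989 CPM in the other controls, against 0.504 to 1.15 CPM in STAT3 KO, and its log2 fold change was -0.42 (SE 0.32) with and 0.095 (SE 0.30) without control 4. Their receptors Tacr1 and Tacr3 had log2 fold changes of 0.071 (SE 0.060) and -0.14 (SE 0.11).

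The remaining peptides were as follows. Vgf was at 249, 274, 235 and 216 CPM in controls 3, 4, 11 and 13 and ranged from 143.5 CPM (STAT3 KO 8) to 353 CPM (STAT3 KO 6) in STAT3 KO (log2 fold change 0.043, SE 0.16). Nxph4 was at 26.0 CPM in STAT3 KO 8 and at 39.0 to 48.0 CPM in all other animals (log2 fold change 0.015, SE 0.12). STAT3 KO 8 was lowest in both, and its choroid plexus genes summed to 247 CPM, most of it Ttr. In STAT3 KO 16, with a sum of 241 CPM, Nxph4 was at 41.2 CPM and Vgf at 227.5 CPM. Whether choroid plexus tissue set these values was not tested. Over the 12 animals the relations of Nxph4 and Vgf with choroid plexus genes did not pass after adjustment (r = -0.657 and -0.629, permutation p = 0.084 and 0.084, rho = -0.545 and -0.490, permutation p = 0.092 and 0.106, adjusted p = 0.46 for both r; r = -0.363 and -0.185 without the 2 animals farthest from the median of the markers). Npw, the neuropeptide W gene, was read with 3 counts in STAT3 KO 10 and 32 counts in STAT3 KO 15, at 0.103 and 1.08 CPM, and had a log2 fold change of -0.049 (SE 0.43). The calcitonin gene-related peptide genes Calca and Calcb had log2 fold changes of 0.083 (SE 0.14) and -0.25 (SE 0.17), the C-type natriuretic peptide gene Nppc of 0.056 (SE 0.16), Npb of 0.057 (SE 0.18) and Nmb of 0.21 (SE 0.15). Nmb shares 20.6% of its exon bases with Sec11a on the same strand, and its counts are uncertain for that reason. The hypothalamic peptide receptors Hcrtr1, Hcrtr2, Oxtr, Avpr1a and Mc4r, for orexins, oxytocin, vasopressin and melanocortins, had log2 fold changes between -0.024 and 0.17, and Nmbr, the neuromedin B receptor, had 0.31 (SE 0.21). Of the bases of Nmbr, 15.6% overlap an antisense transcript, from which reads could not be told apart if strand was not used.

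The spread between animals of the same genotype differed by role. It was measured as the SD of log2 CPM around the genotype means, pooled over the 12 animals. Its median was 0.315 for the 18 peptide genes tested, 0.177 for the 23 receptors and 0.117 for all genes tested. Of the peptide genes 7 (38.9%) and of the receptors 2 (8.70%) lay above 0.358, the 90th percentile of all genes. Largest were Npw (0.754), Vip (0.656), Vipr1 (0.614), Npy (0.584), Tac2 (0.559), Vipr2 (0.415), Trh (0.414), Gal (0.393) and Cck (0.386), and smallest were Adcyap1r1 (0.078), Tacr1 (0.090), Sstr1 (0.099) and Ntsr2 (0.099). Genes with few reads vary more through counting, so the biological coefficient of variation estimated by edgeR was also set against its trend for genes of like level. It exceeded 2 times the trend in 6 peptide genes (33.3%), in 0 receptors and in 2.13% of all genes. These were Vip at 3.98 times, Cck at 2.42, Vgf at 2.25, Tac1 at 2.17, Npy at 2.15 and Trh at 2.14 times the trend. Without control 4 the SD of Npy was 0.22 and that of Vipr1 was 0.36. That of Vip was 0.498 without STAT3 KO 10 and 0.568 without STAT3 KO 5, against 0.656 with all animals. Without STAT3 KO 8 the SD of Vgf was 0.20, against 0.321 with all animals, and that of Nxph4 was 0.099, against 0.246.

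**Figure D5:**
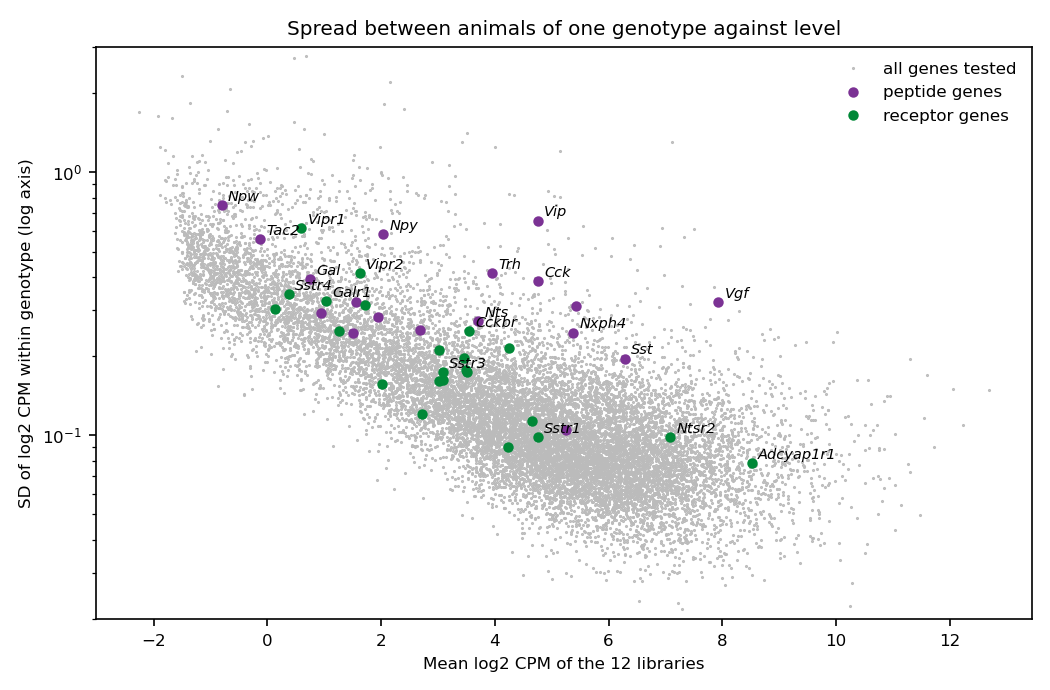
SD of log2 CPM within genotype (log axis) against mean log2 CPM of the 12 libraries for all 15453 genes tested (grey), peptide genes (purple) and receptor genes (green). Vip, Cck, Trh and Vgf lie above most genes of like level, and Adcyap1r1, Ntsr2 and Sstr1 lie among them.

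The animals at the extremes differed from gene to gene. Of the 41 genes, control 3 was lowest for 13 and highest for 0, control 4 was highest for 8, and STAT3 KO 10 was highest for 7 and lowest for 8. Some genes deviated together over the 12 animals, although none of 190 pairs passed after adjustment in either Pearson's or Spearman's correlation. Vip and Npw were both lowest in STAT3 KO 10 and high in STAT3 KO 5 and STAT3 KO 15 (r = 0.876, permutation p = 0.0029, adjusted p = 0.156; rho = 0.699, permutation p = 0.020, adjusted p = 0.329; r = 0.608 without the 2 animals farthest from the median of Vip and 0.732 without those for Npw). Vip and Nts went in opposite directions (r = -0.774, permutation p = 0.0061, adjusted p = 0.156; rho = -0.727, permutation p = 0.016, adjusted p = 0.329; r = -0.678 without the 2 farthest for Vip and -0.627 without those for Nts). Cck and Cckbr, whose promoters are printed above, had r = 0.728 (permutation p = 0.011, adjusted p = 0.180; rho = 0.706, permutation p = 0.015, adjusted p = 0.329; r = 0.836 without the 2 farthest for Cck and 0.731 without those for Cckbr).

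The labels give the sex of each animal, so the genotype difference was also compared between females and males. In edgeR's interaction test 0 of 41 genes had an adjusted p below 0.05, as did 0 of all genes (0%), and the smallest adjusted p of the set was 0.898. An unadjusted p below 0.05 was found for 9 of 41 (22.0%), compared with 5.49% of all genes. In each of these 9 (Sstr1, Npy2r, Nppc, Vipr1, Sstr4, Npy, Adcyap1r1, Trh and Npy1r, named after their values were seen) the difference between STAT3 KO and control was higher in females than in males. Sstr1 was at 25.3 and 25.4 CPM in control females and 27.4 to 29.8 CPM in STAT3 KO females, but at 28.5 and 28.8 CPM in control males and 24.5 to 26.6 CPM in STAT3 KO males. The genotypes were thus apart in both sexes with opposite signs (interaction -0.33, SE 0.090, adjusted p = 0.898 by edgeR). Nppc behaved alike, with 2.58 and 3.22 CPM in control females, 3.41 to 5.00 CPM in STAT3 KO females, 4.58 and 4.66 CPM in control males and 3.08 to 3.95 CPM in STAT3 KO males (interaction -0.84, SE 0.25, adjusted p = 0.898 by edgeR). Such opposite separation was seen in 2 of 41 genes (4.88%) and in 0.615% of all genes. There were only 2 controls of each sex. Without control 4, which leaves 1 control male, the interactions of the 9 genes ran from -0.018 (Npy) to -1.15 (Sstr4). That of Npy was -1.39 with all animals, and that of Vipr1 was -1.70 with and -0.65 without control 4. When each STAT3 KO animal was left out in turn, the count was 7 (17.1%, against 3.96% of all genes without STAT3 KO 10) to 9 (22.0%, against 6.98% without STAT3 KO 8).

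Genes of the wider peptide system were read in the same way. Of 61 other peptide and receptor genes, such as hypothalamic peptides, natriuretic peptides and receptors of members' families, 35 were tested, 0 passed after adjustment and 4 (11.4%, against 7.66% of all genes) had an unadjusted p below 0.05. These were Nppa (log2 fold change 1.01, SE 0.36), Trhr2, another receptor for the product of Trh (-0.41, SE 0.16), Qrfpr (-0.52, SE 0.20) and Ghsr, the ghrelin receptor (-0.49, SE 0.22, exact permutation p = 0.162). Nppa was read with at most 18 counts. Of 20 genes for the processing and release of peptides, among them the convertases Pcsk1 and Pcsk2, the carboxypeptidase Cpe and the granins Chga and Chgb, all were tested and 0 had an unadjusted p below 0.05. Their log2 fold changes lay between -0.13 and 0.11, and the median of their SD within genotype was 0.096.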

How the data were processed

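RNA from the DR of 12 mice was sequenced as 75 bp single reads, with 1 library per animal. The authors mapped reads to mm10 and deposited a table of raw counts by gene symbol for every animal. The submitters' processing notes name STAR 2.5.0b and DESeq2 1.6.3. The read counter, the annotation and the use of strand are not given in the sources used here. Lines for reads assigned to no gene (13.4% to 15.3% of the reads listed) or to several were left out, although reads shared by overlapping genes may be lost there. Groups, sex and animal numbers are those of the sample labels, which name no batch.

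Computations used R 4.3.3 with edgeR 4.0.16 and DESeq2 1.42.0, and Python 3.11.15 with scipy 1.17.1. Counts were scaled by TMM and filtered with filterByExpr by genotype (10 counts, 15 in total), which left 15453 genes. Genotype was tested with edgeR's two-sided quasi-likelihood test, adjusted by Benjamini-Hochberg over all genes tested with a threshold of 0.05. Both sexes entered as 1 group, and the interaction with sex was fitted separately. The code was tested on simulated counts. Log2 CPM used a prior count of 2, and the exact permutation test used all 495 divisions of the animals, with a smallest p of 0.00202. Correlations used 100000 resamples. CPM per kb used the union of exons in GENCODE vM21, which also gave positions. The floor of 3 counts covers counting error only.

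The text names with fold changes each gene of the set with an unadjusted p below 0.05, the 6 peptide and 4 receptor genes with the largest spread, and the 3 of each role with the highest level per kilobase. Values of the other genes of the set are given to account for them, and of other lists those below 0.05 are named. The members and lists were chosen with earlier results of these data known. The alternatives were DESeq2, RLE scaling, 2 other filters, sex as a covariate, a prior count of 0.5, plain library totals, and each animal left out in turn.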

Additional observations from a re-analysis of the deposited data

Results flagged for a closer look

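Of the 82 groups of animals examined (41 genes in 2 genotypes), 3 held an animal far from the others by Dixon's ratio, the gap to the nearest animal over the whole range of log2 CPM. Chance gives about 4.1 such groups. Npy in control 4 had a ratio of 0.954, with 10.1 CPM where controls 3, 11 and 13 had 2.43 to 2.60 CPM. Nxph4 in STAT3 KO 8 had a ratio of 0.707, with 26.0 CPM against 40.1 to 48.0 CPM in the other STAT3 KO animals. Calcb in STAT3 KO 10 had a ratio of 0.542, with 1.61 CPM against 2.38 to 3.30 CPM.

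In 2 genes the genotypes lay apart in females and in males with opposite signs. The genotype difference in males minus that in females was -0.332 on the log2 scale for Sstr1 and -0.839 for Nppc, and neither passed after adjustment in edgeR's interaction test (adjusted p = 0.898 for both). Each rests on 2 controls per sex.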

How the results depend on the processing

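No gene of the set had an adjusted p below 0.05 between genotypes under any alternative. The 5 genes with an unadjusted p below 0.05 were Cck, Cckbr, Sstr3, Sst and Nts also with DESeq2, RLE scaling, sex as a covariate and the stricter filter. Their number lay between 3 (without control 11, 7.32% against 7.65% of all genes) and 10 (without control 4, 24.4% against 8.96%) when animals were left out in turn, while the share of all genes ran from 5.00% to 10.8%. By edgeR, Sstr3, Sst and Nts each lost this level without at least 1 animal, and Cck and Cckbr did not. By the exact permutation test Cck had a p of 0.024 to 0.115 and Cckbr of 0.0091 to 0.085 when animals were left out. Cckbr lost it without control 3 and without control 4, and Cck in 7 of 12 tests. The number with an exact permutation p below 0.05 lay between 1 and 5. The share of all genes by this test is given with all animals only (7.10%), so this range has no background beside it. The other peptide and receptor genes with an unadjusted p below 0.05 numbered 2 (5.56%, against 5.31% of all genes, without control 13) to 8 (8 of 36 without control 4, 22.2%, against 8.96%). The processing genes numbered 0 to 3 (3 without STAT3 KO 8, where the share of all genes was 10.8%). DESeq2 gave an unadjusted p below 0.05 for 1 of 20 processing genes, against 6.21% of all genes it tested. In the interaction with sex, 0 to 1 gene had an adjusted p below 0.05, and the 1 was Npy without control 11 (adjusted p = 0.022 by edgeR), where 37 of 15546 genes passed. There control 4 was the only control male and was assumed to vary like the other groups. Without control 4, with control 11 as the only control male, the interaction of Npy was -0.018 (adjusted p = 0.9999 by edgeR).

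Log2 fold changes with both signs were found when animals were left out. They ran from -0.22 to 0.80 for Npy, -0.64 to 0.36 for Vipr1, -0.67 to 0.095 for Tac2, -0.26 to 0.11 for Npw, -0.24 to 0.035 for Vipr2, -0.041 to 0.13 for Vgf, -0.013 to 0.093 for Nxph4, -0.0097 to 0.32 for Sstr4 and -0.032 to 0.031 for Sstr1. With sex as a covariate that of Npy was 0.038. The cause was not tested, except that leaving out control 4 removes the highest values of Npy, Vipr1 and Tac2. Genes below 0.123 CPM hold too few counts for any comparison. The labels do not name litters, so litter was not fitted and no analysis paired by litter was possible.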
